A study of Mus musculus with 9 samples.

Results

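The 10 transcription factors followed here direct the dendritic cell (DC) lineage: Spi1, Irf8, Irf4, Batf3, Id2, Zeb2, Bcl6, Ikzf1, Klf4 and Nfil3. They were found by symbol among probe sets that the platform annotation gives exactly 1 gene. All 10 had at least 1, and together they held 16 of the 22626 non-control probe sets of the array; 12393 genes had such a probe set. A gene with several is led here by the one with the highest mean over the 9 arrays.

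The RNA came from mouse spleen DC elicited with Flt3L, the growth factor that expands DC, in animals 6 to 8 weeks old that carried B16 melanoma tumours expressing Flt3L. All 3 groups share this source and a selection on CD11c magnetic beads. The treated groups received butyrate, a short-chain fatty acid, or trichostatin A (TSA), a hydroxamic acid, and the third group was untreated, with 3 one-colour Affymetrix arrays in each. Both compounds inhibit histone deacetylases (HDACs), enzymes that take acetyl marks off histones and other proteins. The labels give no dose or duration and do not say whether replicates came from separate mice, so p-values measure only the spread between these samples, which may be technical. Because dose and time are not given, butyrate and TSA are set side by side as these preparations were treated.

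DC arise from bone marrow progenitors under the growth factor receptor Flt3, and a small circuit of transcription factors sorts them into subsets. PU.1 (encoded by Spi1) and Ikaros (Ikzf1) act early and in several lineages. IRF8 with BATF3, helped by ID2 and NFIL3, directs conventional DC type 1 (cDC1), which cross-present antigen. IRF4, KLF4 and ZEB2 are tied to conventional DC type 2 (cDC2), and ZEB2 also to plasmacytoid DC (pDC) and monocytes.

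Levels are log2 RMA expression values, a scale on which probe sets of different genes cannot be compared, and changes are differences of group means on that scale with limma's standard error (SE). A probe set was called at an adjusted p under 0.05, with Benjamini-Hochberg adjustment over all 22626 probe sets. Arrays of 1 group correlated at r between 0.9963 and 0.9983 across probe sets, and arrays of different groups at r between 0.9711 and 0.9940. The DC genes H2-Aa, H2-Eb1 and Cd74 of MHC class II presentation lay above 14 in every group, as group means, and all 9 DC markers of the list were above the median level of all probe sets. Of that list, Itgax, the gene of CD11c, lay lower in the treated groups, at 8.50 with butyrate and 8.25 with TSA against 9.24 in untreated DC. Hybridization spike-ins, bacterial control transcripts that do not come from the DC, were brighter on the butyrate arrays. Their means were 10.99 ± 0.057 for butyrate, 10.61 ± 0.026 for TSA and 10.57 ± 0.083 for untreated (SD, n = 3 each). A further hybridization spike-in, Cre, which lies near the top of the scale and was left out of that mean, differed less, at 14.74 for butyrate, 14.63 for TSA and 14.57 for untreated. Setting the others equal lowers every butyrate change by 0.42 against untreated.

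Zeb2 and Spi1 changed most. With butyrate, Zeb2 was 5.7-fold and Spi1 2.74-fold lower than in untreated DC, and with TSA they were 2.77-fold and 1.96-fold lower. In bulk RNA, fewer cells of a type and less RNA per cell cannot be told apart. Irf4 was 1.61-fold higher with butyrate and showed no such change with TSA. Batf3 and Bcl6 fell by smaller amounts with both compounds, Klf4 fell with butyrate, and Nfil3 fell with TSA. Irf8 and Id2 were slightly higher with butyrate on the deposited scale, and at their lead probe sets both turned below 0 when hybridization or poly-A spike-ins were set equal.

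Counted by lead probe set, 5 of the 10 factors were lower, 0 higher and 5 not called with TSA, where 46.3% of the 12393 lead probe sets were called, 25.8% higher and 20.5% lower. A second probe set of Id2, not its lead, was called higher with TSA. With butyrate 3 were higher, 5 lower and 2 not called, where 57.2% of lead probe sets were called, 32.6% higher and 24.5% lower. Between butyrate and TSA, 4 were higher with butyrate, 3 lower and 3 not called, against a background of 33.3%, 14.2% higher and 19.1% lower. Many genes were called in each comparison, and whether these counts set the 10 factors apart from other genes was not tested. With hybridization spike-ins set equal, 1 factor was higher and 8 were lower with butyrate against untreated, and 1 higher and 6 lower against TSA. Of all 22626 probe sets, 1451 were then higher and 15560 lower against untreated, and 157 higher and 17508 lower against TSA. With poly-A spike-ins set equal, 0 were higher in both butyrate comparisons. Spi1, Zeb2, Klf4, Bcl6 and Batf3 were lower with butyrate against untreated, and Spi1, Zeb2 and Klf4 against TSA. With TSA 2 of the 10, Spi1 and Zeb2, were lower. Of all probe sets, 862 were then higher and 6282 lower, 37 and 4862, and 1910 and 2088, in the same order. These spike-ins averaged 9.03 ± 0.104 with butyrate, 8.70 ± 0.149 with TSA and 8.68 ± 0.307 in untreated DC (SD, n = 3 each). On that scale each factor's SE was 0.194. The median change of the 10 factors was −0.22 with TSA and −0.09 with butyrate, beside 0.03 and 0.08 for all lead probe sets. Both compounds were compared with the same untreated arrays.

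**Figure D1:**
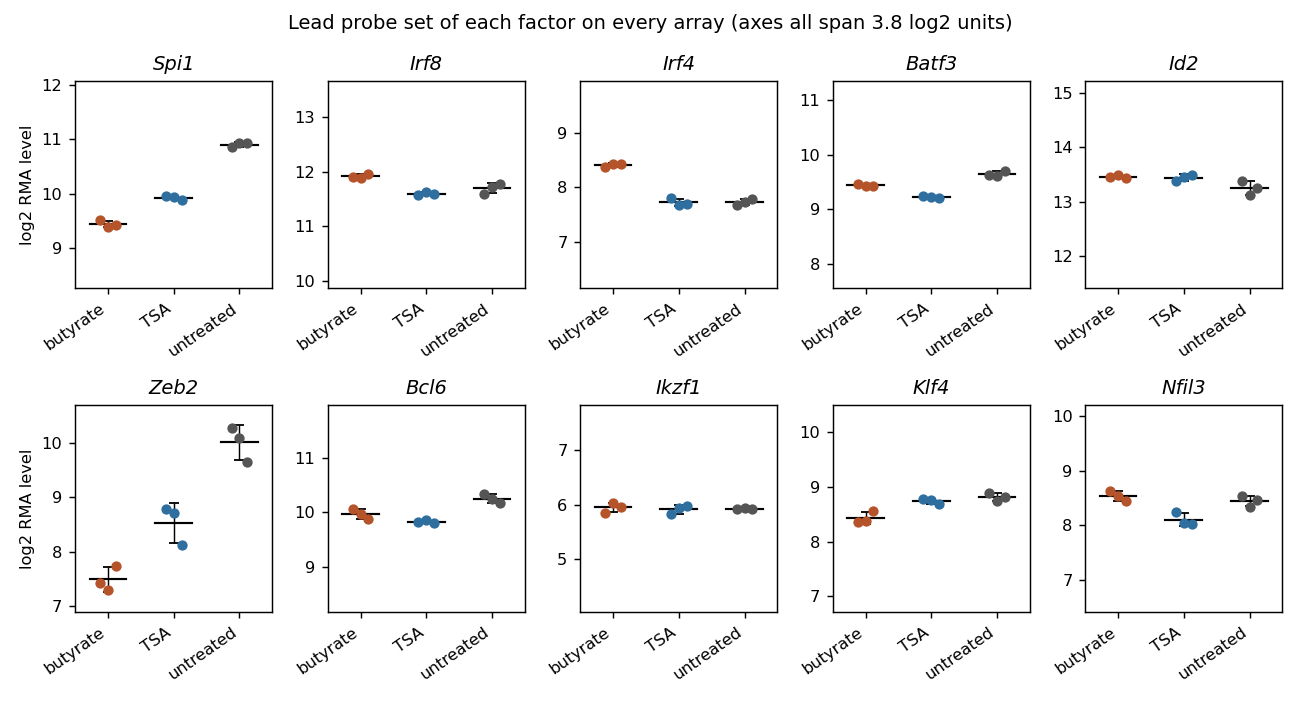
Log2 RMA level of the lead probe set of each of the 10 factors on every array, with butyrate, TSA and untreated from left to right. Points are arrays, horizontal lines are group means and bars are SD (n = 3). Zeb2 and Spi1 form 3 separate steps, with the butyrate arrays lowest, and Irf4 is raised on the butyrate arrays alone.

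Spi1 encodes PU.1, an ETS-family factor needed for myeloid and DC development. Its single probe set (1418747_at) measured 9.52, 9.40 and 9.43 on butyrate arrays, 9.96, 9.94 and 9.90 on TSA arrays, and 10.85, 10.93 and 10.93 on untreated arrays. The 3 groups did not overlap in any pair, and the spread within a group was small beside the steps between them. Lack of overlap, given here for several factors, was common among all lead probe sets. It held for 62.7% of them for butyrate minus untreated, 54.9% for TSA minus untreated and 50.3% for butyrate minus TSA. The change was −1.45 ± 0.051 with butyrate (limma adjusted p = 1.49e-08) and −0.97 ± 0.051 with TSA (limma adjusted p = 2.65e-07). Butyrate lay below TSA by a further step (−0.48 ± 0.051, limma adjusted p = 0.000152). In size these changes exceeded those of 97.2% of genes with butyrate and 94.1% with TSA.

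Zeb2 encodes a zinc finger and homeodomain repressor that is known to restrain Id2 and to oppose the cDC1 fate. Its probe set (1422748_at) measured 7.43, 7.30 and 7.74 on butyrate arrays, 8.78, 8.70 and 8.11 on TSA arrays, and 10.27, 10.08 and 9.65 on untreated arrays. No pair of groups overlapped, although Zeb2 varied more between arrays of a group than the other factors did, with SDs of 0.224 with butyrate, 0.365 with TSA and 0.320 in untreated DC. The change was −2.51 ± 0.203 with butyrate (limma adjusted p = 3.29e-06) and −1.47 ± 0.203 with TSA (limma adjusted p = 0.000184). With butyrate the level was 2.06-fold lower than with TSA (−1.04 ± 0.203, limma adjusted p = 0.00414). Only a small part of the genes changed as far: 99.6% had a smaller change with butyrate and 98.3% with TSA.

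The RefSeq promoter windows of these factors, 250 bases before to 50 after a start on GRCm38.p6, were matched for 9 of the 10 factors, with Spi1 the exception. Those of Zeb2, Irf4 and Irf8 are shown because Zeb2 fell furthest, Irf4 was raised by butyrate and not by TSA, and Irf8 is of the same family as Irf4. Each line gives 5′ to 3′ sequence on the gene's strand, and capitals mark the motifs found on either strand.
Zeb2 (chr2:45117393-45117692, minus strand): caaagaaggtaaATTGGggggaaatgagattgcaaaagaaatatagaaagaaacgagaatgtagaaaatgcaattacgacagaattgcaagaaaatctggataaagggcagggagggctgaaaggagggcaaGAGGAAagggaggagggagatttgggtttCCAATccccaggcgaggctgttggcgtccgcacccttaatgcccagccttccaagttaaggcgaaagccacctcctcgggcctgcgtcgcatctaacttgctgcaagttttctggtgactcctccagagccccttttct
Irf4 (chr13:30748983-30749282, plus strand): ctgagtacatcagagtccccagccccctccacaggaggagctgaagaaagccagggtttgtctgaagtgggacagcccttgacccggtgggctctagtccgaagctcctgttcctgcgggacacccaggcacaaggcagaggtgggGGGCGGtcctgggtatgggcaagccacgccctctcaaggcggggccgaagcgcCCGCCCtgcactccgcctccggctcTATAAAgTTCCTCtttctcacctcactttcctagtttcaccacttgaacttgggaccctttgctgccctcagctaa
Irf8 (chr8:120736108-120736407, plus strand): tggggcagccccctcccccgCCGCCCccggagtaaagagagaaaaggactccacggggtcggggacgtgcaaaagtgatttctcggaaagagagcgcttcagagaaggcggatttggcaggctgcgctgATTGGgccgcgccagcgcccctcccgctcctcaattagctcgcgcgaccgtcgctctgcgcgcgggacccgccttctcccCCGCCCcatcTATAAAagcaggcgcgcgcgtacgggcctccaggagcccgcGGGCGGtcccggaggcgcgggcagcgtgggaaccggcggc

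The following motifs were searched on both strands: the GC box GGGCGG, the PU.1-type ETS core GAGGAA, the E box CACGTG, the TATA box TATAAA and the CCAAT box CCAAT. An AP-1 site and an interferon-response core were searched too, and were found in none of the 3 windows shown, beside 7.81% and 3.44% of all. No motif contains another, and overlapping matches were counted separately. The Zeb2 window shown holds 1 ETS core, 2 CCAAT boxes and no GC box, and 49.3% of its bases are G or C. An ETS core is present in 4 of the 9 first-listed windows, Zeb2, Irf4, Batf3 and Bcl6, and in 28.3% of all 32851 windows. The Irf4 window holds 2 GC boxes, 1 TATAAA and 1 ETS core, and the Irf8 window 3 GC boxes, 1 TATAAA and 1 CCAAT box, with 61% and 70% G or C. A GC box is present in the first-listed window of 8 of the 9 matched factors, beside 35.7% of all windows. The first of Zeb2 has none, and its other 3 windows, 2 of which overlap, each hold one. The second windows of Irf8, Bcl6 and Ikzf1 hold neither a GC box nor an ETS core. Shares over all windows include such further starts, so they are not a like background for first-listed windows. TATAAA occurs in 13.6% of all windows and CCAAT in 37.4%. The E box was found in none of the 3 windows shown and in 7.15% of all. These matches describe letters and not binding sites.

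Irf8 encodes the interferon regulatory factor that specifies cDC1 and is also high in pDC. Its lead probe set (1416714_at) measured 11.90, 11.89 and 11.96 on butyrate arrays, 11.57, 11.63 and 11.59 on TSA arrays, and 11.59, 11.72 and 11.78 on untreated arrays. The butyrate arrays lay above both other groups, and the TSA and untreated arrays overlapped. The change was 0.22 ± 0.057 with butyrate (limma adjusted p = 0.00946) and −0.10 ± 0.057 with TSA, which was not called (95% confidence interval −0.23 to 0.03). The second, dimmer probe set gave 0.37 ± 0.118 with butyrate (limma adjusted p = 0.0232) and −0.14 ± 0.118 with TSA (limma adjusted p = 0.405). Butyrate exceeded TSA by 0.32 ± 0.057 at the lead probe set (limma adjusted p = 0.00282) and by 0.51 ± 0.118 at the other (limma adjusted p = 0.0101). With hybridization spike-ins set equal the butyrate change of the lead probe set was −0.20, that of the second −0.05, and butyrate minus TSA at the lead probe set −0.066, none of them called. A rise of Irf8 thus holds relative to the bulk of genes and not on that scale.

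Batf3 encodes a basic leucine zipper factor that sustains Irf8 in cDC1. Its probe set (1453076_at) measured 9.46, 9.43 and 9.43 on butyrate arrays, 9.25, 9.23 and 9.20 on TSA arrays, and 9.64, 9.61 and 9.70 on untreated arrays. The groups did not overlap, and here TSA, not butyrate, gave the lowest level. The fall was −0.42 ± 0.046 with TSA (limma adjusted p = 3.61e-05) and −0.21 ± 0.046 with butyrate (limma adjusted p = 0.00333). Butyrate lay above TSA by 0.21 ± 0.046 (limma adjusted p = 0.0075), a difference that turned to −0.17 and was not called with hybridization spike-ins set equal. The fall with butyrate was not called after a further quantile normalization (−0.12, limma adjusted p = 0.0628), and the fall with TSA was as large but not called with poly-A spike-ins set equal (−0.43 ± 0.194, limma adjusted p = 0.119).

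Id2 encodes an inhibitor that binds E proteins and keeps them from DNA, and it favours conventional DC over pDC. Its lead probe set (1435176_a_at) measured 13.45, 13.50 and 13.44 on butyrate arrays, 13.37, 13.45 and 13.50 on TSA arrays, and 13.38, 13.13 and 13.26 on untreated arrays. The butyrate arrays lay above the untreated ones by a narrow margin, and the TSA arrays overlapped both. The change was 0.21 ± 0.068 with butyrate (limma adjusted p = 0.0283) and 0.19 ± 0.068 with TSA, which was not called (limma adjusted p = 0.0518). The other 2 probe sets were higher with butyrate by 0.12 ± 0.045 (limma adjusted p = 0.0439) and 0.50 ± 0.099 (limma adjusted p = 0.00163), and with TSA by 0.14 ± 0.045 (limma adjusted p = 0.0269) and by 0.18 ± 0.099 (not called). The butyrate call of the lead probe set was lost without untreated replicate 2 (0.14, limma adjusted p = 0.0999), and narrowly without untreated replicate 3, butyrate replicate 1 or butyrate replicate 2. With hybridization spike-ins set equal the lead probe set turned to −0.21 and the second to −0.29, both called lower, and the third was 0.09 and not called.

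Nfil3 encodes a basic leucine zipper repressor that is known to act upstream of Zeb2 in cDC1 specification. Its probe set (1418932_at) measured 8.63, 8.55 and 8.45 on butyrate arrays, 8.24, 8.05 and 8.02 on TSA arrays, and 8.53, 8.34 and 8.47 on untreated arrays. The TSA arrays lay below both other groups, while butyrate and untreated arrays overlapped. The change was −0.34 ± 0.078 with TSA (limma adjusted p = 0.00496) and 0.10 ± 0.078 with butyrate (95% confidence interval −0.08 to 0.27, not called). The 2 compounds differed by 0.44 ± 0.078, butyrate minus TSA (limma adjusted p = 0.00266), and this shrank to 0.05 and was not called with hybridization spike-ins set equal, where butyrate against untreated was −0.32 and called lower (limma adjusted p = 0.00236). The TSA fall was as large but not called with poly-A spike-ins set equal (−0.35 ± 0.194, limma adjusted p = 0.256).

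**Figure D2:**
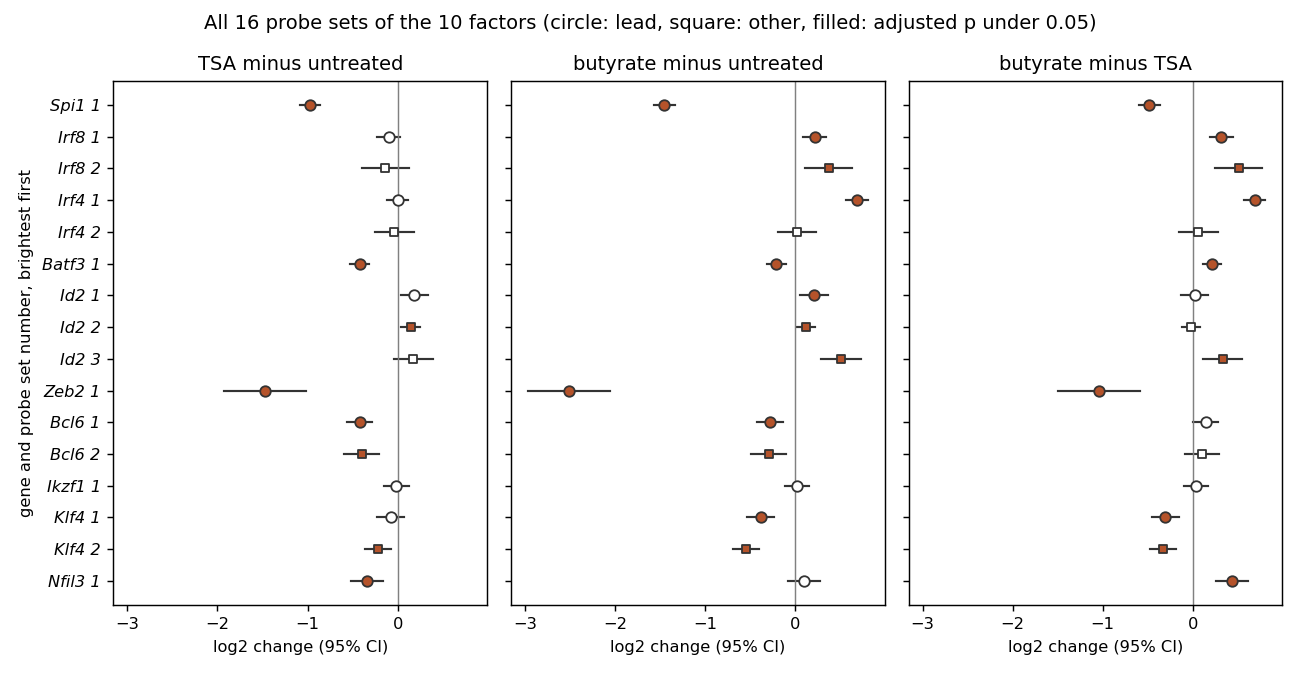
Log2 change with 95% confidence interval of all 16 probe sets of the 10 factors in each of the 3 comparisons, with probe sets of a gene numbered from the brightest. Filled symbols passed the adjusted threshold. Zeb2 and Spi1 lie left of 0 in all 3 panels, and Irf4 1 lies at 0 with TSA and at 0.68 with butyrate. The butyrate rises of Irf8 and Id2 at their lead probe sets turn below 0 on the hybridization spike-in scale.

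Irf4 encodes the interferon regulatory factor of cDC2 and of DC migration and can replace IRF8 at some DNA elements shared with PU.1. Its lead probe set (1421173_at) measured 8.37, 8.41 and 8.43 on butyrate arrays, 7.79, 7.67 and 7.69 on TSA arrays, and 7.66, 7.72 and 7.77 on untreated arrays. Butyrate arrays stood apart from the other 6, which overlapped. The change was 0.68 ± 0.054 with butyrate (limma adjusted p = 2.8e-06) and 0.00 ± 0.054 with TSA, with a 95% confidence interval of −0.12 to 0.12. The difference between the compounds, butyrate minus TSA, was 0.69 ± 0.054 (limma adjusted p = 3.32e-05), larger than that of 98.2% of genes. The rise was 0.27 and still called with hybridization spike-ins set equal (limma adjusted p = 0.0127), and 0.33 and not called with poly-A spike-ins (limma adjusted p = 0.181). The second Irf4 probe set was dim, at 4.96 ± 0.127 with butyrate, 4.90 ± 0.137 with TSA and 4.94 ± 0.141 in untreated DC (SD, n = 3 each). It was not called in any comparison on the deposited scale. With hybridization spike-ins set equal it was called lower, at −0.40 for butyrate minus untreated (limma adjusted p = 0.000791). For butyrate minus TSA it was then −0.32 (limma adjusted p = 0.00397), opposite to the lead probe set.

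Klf4 encodes a Krüppel-like factor required by part of the cDC2 and by monocytes. Its lead probe set (1417394_at) measured 8.36, 8.38 and 8.56 on butyrate arrays, 8.77, 8.75 and 8.69 on TSA arrays, and 8.89, 8.74 and 8.82 on untreated arrays. Butyrate arrays were lowest and did not overlap the others. The fall with butyrate was −0.38 ± 0.067 (limma adjusted p = 0.000809), and −0.55 ± 0.063 at the second probe set (limma adjusted p = 4.25e-05). With TSA the lead probe set was not called (−0.08 ± 0.067, 95% confidence interval −0.23 to 0.07) and the second was lower (−0.22 ± 0.063, limma adjusted p = 0.018). Butyrate minus TSA was −0.31 ± 0.067 and −0.33 ± 0.063 at the 2 probe sets (limma adjusted p = 0.00767 and 0.00363).

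Bcl6 encodes a zinc finger repressor best known from germinal centre B cells and also used in DC development. Its lead probe set (1421818_at) measured 10.06, 9.96 and 9.88 on butyrate arrays, 9.82, 9.85 and 9.81 on TSA arrays, and 10.34, 10.24 and 10.17 on untreated arrays. Both treated groups lay below the untreated arrays without overlap. The fall was −0.28 ± 0.063 with butyrate (limma adjusted p = 0.0038) and −0.42 ± 0.063 with TSA (limma adjusted p = 0.000314). The second, dimmer probe set gave −0.30 and −0.40 in the same order (limma adjusted p = 0.015 and 0.00343), and there the butyrate and untreated arrays overlapped. The difference between the compounds was not called (0.14 ± 0.063, 95% confidence interval 0.00 to 0.28, limma adjusted p = 0.12), and turned to −0.24 and was called lower with hybridization spike-ins set equal. The TSA fall was as large but not called with poly-A spike-ins set equal (−0.43 ± 0.194, limma adjusted p = 0.118).

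Ikzf1 encodes Ikaros, a zinc finger factor of early lymphoid and DC development. Its 1 probe set (1421303_at) was dimmer than most, at 5.85 to 6.03 with butyrate, 5.83 to 5.97 with TSA and 5.92 to 5.93 in untreated DC, where the median level of all probe sets was 6.73. The 3 groups overlapped and no comparison was called. The change was 0.02 ± 0.060 with butyrate (95% confidence interval −0.11 to 0.16) and −0.01 ± 0.060 with TSA (−0.15 to 0.12). With hybridization spike-ins set equal the butyrate value was −0.40 and called lower.

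Differences between 2 factors on the same array do not depend on shifting a whole array, as the spike-in scalings do, and 4 pairs of factors with linked roles were taken after their values were seen. Id2 minus Zeb2 averaged 5.97 ± 0.25 with butyrate, 4.91 ± 0.421 with TSA and 3.26 ± 0.311 in untreated DC (SD, n = 3 each), so the pair moved apart by 2.72 with butyrate and 1.65 with TSA. Nfil3 minus Zeb2 averaged 1.05 ± 0.299 with butyrate, −0.43 ± 0.297 with TSA and −1.55 ± 0.325 in untreated DC. In both pairs every treated array lay above every untreated one, mostly through the fall of Zeb2 already given. Zeb2 itself changed by −2.51 with butyrate and −1.47 with TSA. Id2 changed by 0.21 and 0.19, and Nfil3 by 0.10 and −0.34, in the same order. The rise of Irf8 minus Spi1 likewise came mostly from Spi1, which changed by −1.45 with butyrate and −0.97 with TSA. Irf8 minus Spi1 rose by 1.67 with butyrate and 0.87 with TSA relative to untreated DC, at 2.46 ± 0.073, 1.67 ± 0.044 and 0.79 ± 0.055 (butyrate, TSA, untreated). Irf8 minus Irf4 moved the other way with butyrate, by −0.47, at 3.51 ± 0.031, against 3.88 ± 0.092 with TSA and 3.98 ± 0.043 in untreated DC. Only changes of such differences between groups carry information, since their absolute size depends on the probe sets.

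**Figure D3:**
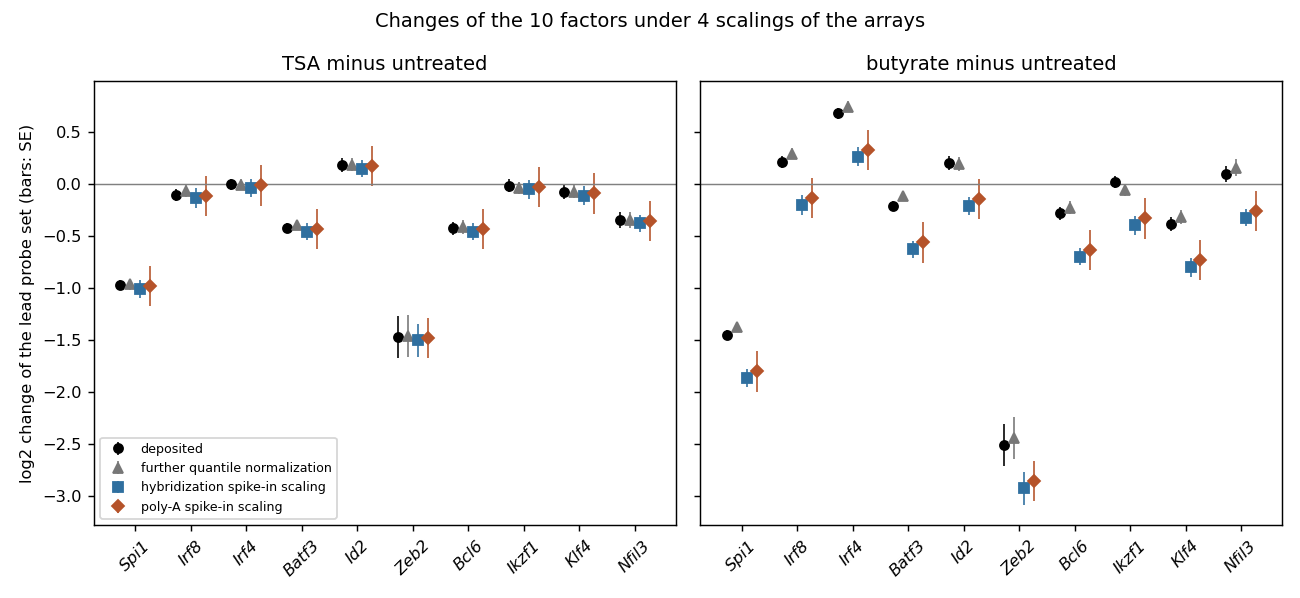
Log2 change of the lead probe set of each factor, TSA minus untreated and butyrate minus untreated, under the deposited scale and 3 other scalings of the arrays; bars are SE. With TSA the 4 scalings nearly coincide. With butyrate the spike-in scalings lower each value by about the same amount, Zeb2, Spi1, Klf4, Bcl6 and Batf3 stay below 0 under all 4, Irf4 stays above 0, and Irf8, Id2, Nfil3 and Ikzf1 lie below 0 under both spike-in scalings.

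Of the other transcription factors of DC development, more were called lower than higher. Over all lead probe sets, the share called lower was 24.5% with butyrate and 20.5% with TSA, and the share called higher 32.6% and 25.8%. The counts of the lists below on the deposited scale are to be read beside these shares. Tcf4, Spib, Stat3, Stat5a, Flt3, Zbtb46, Ciita, Cst3, Csf1r and Csf3r each stand in more than 1 list. The list counts are thus not independent of each other. On the hybridization spike-in scale, 15560 of all 22626 probe sets were lower with butyrate and 1451 higher. List counts on that scale are to be read beside those numbers. Of 35 listed, 32 were measured; 21 were lower and 1 higher with TSA, with a median of −0.31, and 18 were lower and 8 higher with butyrate, with a median of −0.35. The NF-kB subunit Relb, which some cDC2 need, fell furthest with both compounds, with −2.38 ± 0.050 with butyrate and −2.24 ± 0.050 with TSA. Its relative Rel (−1.74 and −1.05), the ETS repressor Etv3 (−1.40 and −1.49) and the zinc finger repressor Gfi1 (−1.52 and −0.81) were also lower, in each case butyrate and then TSA. Cebpb, a myeloid leucine zipper factor, fell, with log2 changes of −0.80 with butyrate and −1.12 with TSA. Irf7, the interferon regulator abundant in pDC, fell, with log2 changes of −0.69 with butyrate and −1.39 with TSA. Zbtb46, a marker factor of conventional DC, fell, with log2 changes of −0.67 with butyrate and −0.58 with TSA. Of the 8 called higher with butyrate, Spib, an ETS factor close to PU.1 and used by pDC, rose by 0.79 ± 0.062 (limma adjusted p = 2.73e-06) and was not called with TSA (0.01 ± 0.062); with hybridization spike-ins set equal 1 of the 32 was called higher with butyrate and 25 lower.

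**Figure D4:**
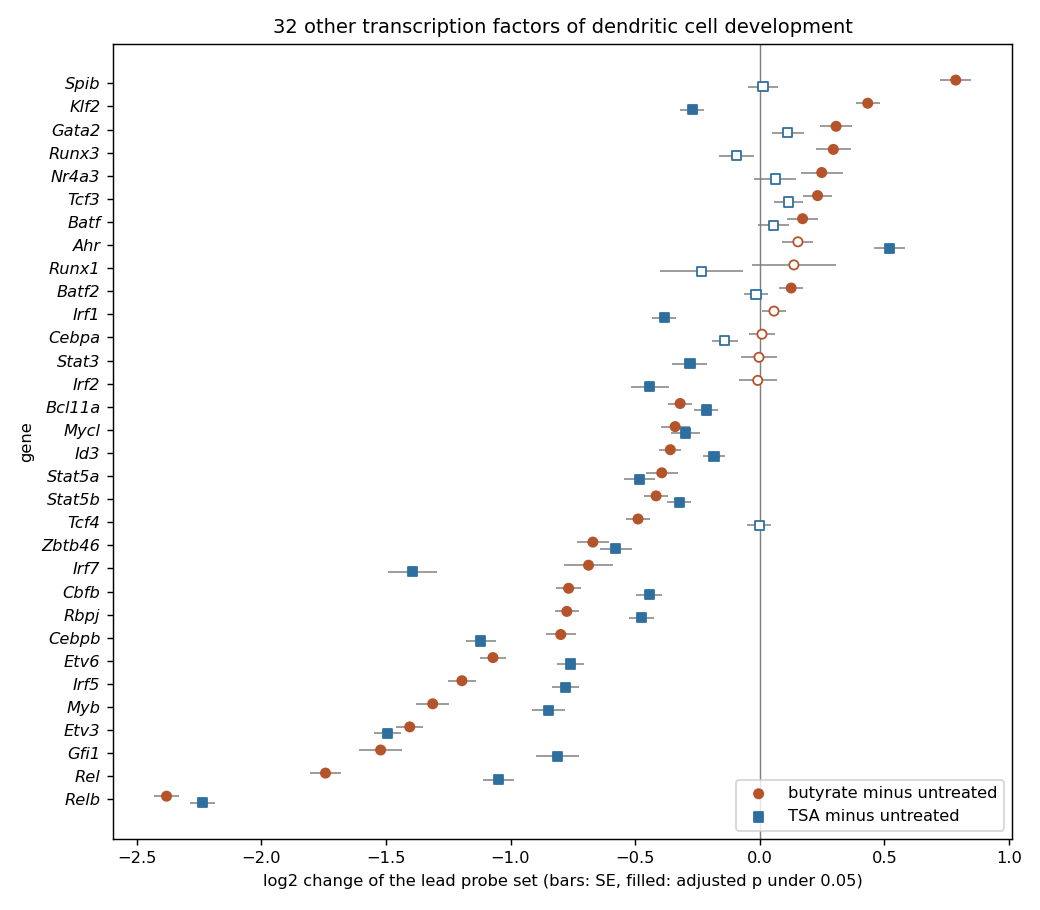
Log2 change of the lead probe set of 32 other transcription factors of DC development, with circles for butyrate minus untreated and squares for TSA minus untreated; bars are SE and filled symbols passed the adjusted threshold. Relb lies lowest with both compounds and Spib highest with butyrate. On the hybridization spike-in scale 25 of the 32 were lower with butyrate and 1 was higher, beside 15560 and 1451 of all 22626 probe sets.

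Over the 9 arrays, the profile of each factor was set beside the 41 other members and listed factors, as a description in which group steps set most of the likeness. The most alike profile for Spi1 was that of Etv6 (Pearson r = 0.998), for Zeb2 Rel (0.980), for Irf4 Spib (0.990), for Irf8 Spib (0.928), for Batf3 Irf7 (0.966) and for Bcl6 Cebpb (0.930). For Klf4 it was Tcf4 (0.903), for Nfil3 Irf1 (0.896), for Id2 Gata2 (0.694) and for Ikzf1 Batf2 (0.505). The arrays share their normalization. Ikzf1 hardly moved, and the lead probe set of Id2 changed by 0.21 with butyrate and 0.19 with TSA, beside an SD of 0.128 in untreated DC.

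Most receptors that feed this circuit fell with both compounds. Of 15 receptors and signalling genes, 10 were lower and 3 higher with butyrate and 11 lower and 1 higher with TSA, with medians of −0.61 and −0.48. On the hybridization spike-in scale 13 were lower and 1 higher with butyrate, and the TGF-beta receptors Tgfbr1 and Tgfbr2 turned to −0.22 and −0.19. The receptor chain Il7r fell, with log2 changes of −3.63 with butyrate and −2.61 with TSA, and Csf2ra, the alpha chain of the GM-CSF receptor, with −2.03 with butyrate and −1.93 with TSA. Csf1r, the macrophage growth factor receptor, fell, with log2 changes of −1.31 with butyrate and −1.14 with TSA, Csf3r, the granulocyte one, with −1.16 and −1.07, and Flt3 itself with −0.63 with butyrate and −0.60 with TSA. Notch2, a receptor that splenic cDC2 need, rose by 0.80 with butyrate and 0.40 with TSA.

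Genes known downstream of the factors did not move as 1 block. Of 10 measured cDC1 genes tied to IRF8 and BATF3, 4 were higher and 4 lower with butyrate, and 2 higher and 3 lower with TSA, with medians of 0.05 and 0.00; with hybridization spike-ins set equal 0 were higher and 5 lower with butyrate. Xcr1, the chemokine receptor that marks cDC1, fell by 1.12 ± 0.073 with butyrate (limma adjusted p = 7.06e-07) and was not called with TSA (0.16 ± 0.073), and the 2 compounds differed by −1.29, butyrate minus TSA. Cd36 fell, with log2 changes of −2.41 with butyrate and −1.46 with TSA, the endocytic receptor Ly75 with −1.43 and −0.93, and Cd8a with −0.66 and −0.93. Naaa, a lysosomal amidase, was 0.41 higher with butyrate, a value that turned to about 0 on the hybridization spike-in scale.

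Of 13 measured cDC2 genes, 9 were lower and 2 higher with each compound, with medians of −0.38 with butyrate and −0.37 with TSA; with hybridization spike-ins set equal 11 were lower and 2 higher with butyrate. Sirpa, the receptor used to sort cDC2, fell, with log2 changes of −1.71 with butyrate and −1.10 with TSA, the adhesion molecule Esam with −1.14 and −0.96, and Ltb, a lymphotoxin subunit, with −1.46 and −1.61. Il1r2, a decoy receptor for interleukin 1, rose by 1.89 with butyrate and 0.57 with TSA. Of 10 measured pDC genes, 8 were lower and 2 higher with butyrate and 7 lower and 1 higher with TSA, with medians of −0.54 and −0.46. The chemokine receptor Ccr9 fell, with log2 changes of −2.38 with butyrate and −1.53 with TSA, Cox6a2 with −1.11 and −1.18 and Klk1 with −1.07 and −1.12, while the phosphatase Ptprs rose by 0.99 and 0.70.

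Of 9 genes whose control elements bind PU.1, alone or with IRF4 or IRF8, 9 were lower with butyrate and 8 with TSA, and 0 were higher with either; the medians were −1.41 and −1.33. Il12b, the p40 chain of interleukin 12, fell, with log2 changes of −4.29 with butyrate and −4.00 with TSA, and Ccr7, the chemokine receptor of migrating DC, with −2.01 and −2.08. Mmp12, a macrophage elastase, fell, with log2 changes of −3.19 with butyrate and −2.26 with TSA. Fcgr1, an Fc receptor, fell, with log2 changes of −1.47 with butyrate and −1.51 with TSA, and Ncf1, a subunit of the phagocyte oxidase, with −1.41 and −1.33. Cst3, the cystatin abundant in DC, was lower with butyrate (−0.14) and not called with TSA (0.06).

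Markers of other cells that a CD11c selection can carry were counted too, and they did not move as 1 block. Of 13 measured macrophage and monocyte markers, 12 were lower and 0 higher with butyrate, and 12 lower and 1 higher with TSA. Among them Cd14, Csf1r, Ccr2 and Fcgr1 are also expressed by DC, and Cd68 and Fcgr1 were already counted with the PU.1 genes above. The summed linear level of the 13 markers ran from 13100 to 13885 on butyrate arrays, from 13712 to 14989 on TSA arrays and from 20027 to 21368 on untreated arrays. Lyz1 and Lyz2, at 12.85 and 12.20 in untreated DC, carry most of that sum. Spic, the factor of red pulp macrophages, fell, with log2 changes of −2.89 with butyrate and −2.73 with TSA. Of 7 markers of NK cells and innate lymphoid cells, cells that use Id2, Nfil3 and Zeb2, 2 were lower and 2 higher with butyrate and 2 lower and 1 higher with TSA. Their summed level was 1014 to 1081 with butyrate, 1673 to 1961 with TSA and 2974 to 3158 in untreated DC, and 5 of the 7 lay below the median level of all probe sets. Klrd1 alone carried 67.4% of that sum with butyrate, 77.4% with TSA and 84.9% in untreated DC. On the hybridization spike-in scale 5 were lower and 0 higher with butyrate. Of 7 measured T cell markers, 1 was lower with butyrate and 3 with TSA, and 0 were higher. Of 8 measured B16 melanoma markers, 4 were higher and 1 lower with butyrate, and 2 higher and 1 lower with TSA. Of these 8, 6 lay below the median level of all probe sets. With hybridization spike-ins set equal, 7 T cell and 5 B16 markers were lower with butyrate and 0 higher. The part of these cells in the results was not tested. RMA gives no value of 0, so no marker can be called absent.

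B cell markers, relevant to Bcl6, Irf4, Spi1 and Ikzf1, were lower in 2 of 9 cases with butyrate and 5 with TSA, and 0 were higher; with hybridization spike-ins set equal all 9 were lower with butyrate. Their summed level was 877 to 973 with butyrate, 771 to 843 with TSA and 1113 to 1155 in untreated DC, with 7 of the 9 below the median level of all probe sets. Neutrophil markers were lower in 7 of 11 cases and higher in 2 with butyrate and lower in 9 with TSA, and erythroid markers were lower in 4 of 7 cases and higher in 1 with butyrate and lower in 5 with TSA. On the hybridization spike-in scale, 11 of 11 neutrophil markers, S100a8 and S100a9 among them, and 6 of 7 erythroid markers were lower with butyrate. The DC markers fell in 5 of 9 cases with each compound, and in 9 of 9 with butyrate with hybridization spike-ins set equal. On the deposited scale 0 were higher and 4 not called with each compound. Itgax fell, with log2 changes of −0.74 with butyrate and −0.99 with TSA, and Ciita with −0.97 and −0.51. The summed level of the DC markers was 98054 to 99393 with butyrate, 105462 to 107645 with TSA and 105934 to 108411 in untreated DC. Cd74, H2-Aa, H2-Ab1, H2-Eb1 and Cst3, with levels near 14 or above, carry most of that sum, so it hardly reflects dimmer markers such as Itgax and Ciita. As a measure of RNA quality, the 3′ probe set of beta-actin exceeded its 5′ probe set by 0.68 ± 0.040 with butyrate, 0.64 ± 0.042 with TSA and 0.43 ± 0.066 in untreated DC (SD, n = 3 each). The same difference for Gapdh was 0.224 ± 0.037 with butyrate, 0.192 ± 0.025 with TSA and 0.159 ± 0.014 in untreated DC. For the pyruvate carboxylase control it ran the other way, at 0.363 ± 0.234 with butyrate, 0.840 ± 0.121 with TSA and 1.197 ± 0.053 in untreated DC. The part of RNA quality in the results was not tested.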

How the data were processed

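Expression was measured on 9 one-colour Affymetrix arrays. Per the submitters' processing notes the authors used RMA, and the deposited values are on a log2 scale. The sources used here state neither the version of RMA nor how probes were assigned to probe sets. Array number, 3 per group, limits the precision, and RMA levels near the floor understate changes.

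Gene names came from the platform annotation: of 22626 non-control probe sets, 20380 had 1 symbol, 691 several and 1555 were unnamed here. Gene IDs of 20351 matched the GRCm38.p6 reference table, which changed 0 symbols. limma 3.58.1 (R 4.3.3) fitted 1 mean per group over all 9 arrays with lmFit and eBayes (6 residual and 3.67 prior degrees of freedom), with Benjamini-Hochberg adjustment over the 22626 probe sets and a threshold of 0.05. The script was tested on simulated data.

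The members and the gene lists were chosen with earlier results of these data known. All members are named whatever their value, and of other lists up to 4 called genes with the largest changes in each treatment, plus genes chosen after their values were seen (Spib, Zbtb46, Flt3, Notch2, Xcr1 with TSA, Naaa, Ptprs, Ncf1, Cst3, Cd74, H2-Aa and H2-Eb1). Alternatives were other scalings, filters, priors, probe set summaries, the replicate block and leaving out each array.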

Additional observations from a re-analysis of the deposited data

Results flagged for a closer look

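Hybridization spike-ins lie outside the genes compared and serve only as an alternative scaling. They were brighter on the butyrate arrays than on the untreated ones by 0.417 on the log2 scale (10.99 ± 0.057 against 10.57 ± 0.083, SD, n = 3 each). The highest untreated array, at 10.67, lay below the lowest butyrate array, at 10.93.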

How the results depend on the processing

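Spi1 and Zeb2 kept their direction and call in all 3 comparisons under all 19 alternatives, as did Klf4 in both butyrate comparisons and Bcl6 for butyrate minus untreated. The spike-in scalings moved the butyrate results most. With hybridization spike-ins set equal, butyrate minus untreated gave 1451 probe sets higher and 15560 lower, with 1 and 8 of the 10 factors, and the median of all probe sets moved to −0.34, against 0.07 as deposited. Irf8 was then −0.20, Id2 −0.21, Ikzf1 −0.40 and Nfil3 −0.32. With poly-A spike-ins set equal 862 were higher, with 0 factors, and Irf8 was −0.13, Id2 −0.14, Ikzf1 −0.33 and Nfil3 −0.25. Of the calls, 56.7% were higher as deposited, 8.53% with hybridization and 12.1% with poly-A spike-ins. Butyrate minus TSA gave 157 higher and 17508 lower with hybridization spike-ins, with 1 and 6 factors, and Irf8 −0.066, Batf3 −0.17, Id2 −0.36, Bcl6 −0.24 and Ikzf1 −0.35. With poly-A spike-ins it gave 37 higher, with 0 factors, and Irf8 −0.023, Batf3 −0.13, Id2 −0.32, Bcl6 −0.20 and Ikzf1 −0.31. There the higher share of calls was 42.7% as deposited, 0.889% and 0.755%. For TSA minus untreated, poly-A spike-ins left 1910 higher and 2088 lower, with 2 factors lower, and Batf3 (−0.43), Bcl6 (−0.43) and Nfil3 (−0.35) lost their calls at changes as large as deposited, with an SE of 0.194. A further quantile normalization turned Ikzf1 to −0.057 for butyrate minus untreated and −0.022 for butyrate minus TSA. Which scaling is right was not tested.

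Id2 became the 1 factor called higher with TSA after quantile normalization, above the median level, with limma-trend, with 1 probe set per gene and with the mean of a gene's probe sets. Some alternatives tested fewer features, so their counts are to be read beside the number tested. With 1 probe set per gene, 12393 were tested. Of these, 3262 were higher and 2604 lower with TSA, 4166 and 3075 with butyrate, and 2480 lower for butyrate minus TSA. The mean of a gene's probe sets, also 12393 features, gave 3208 and 2598, 4153 and 3024, and 2301. Above the median level, a filter that leaves 11313 and drops Ikzf1, 4298 were higher with butyrate. The main fit tested 22626 and gave 5313 and 4395, 6873 and 5254, and 3836.

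Leaving out each array gave 4724 to 5300 higher and 3898 to 4384 lower with TSA (0 to 1 and 5 to 6 factors), 5942 to 6788 and 4834 to 5207 with butyrate (2 to 3 and 5 factors), and 2015 to 3020 and 2992 to 3826 for butyrate minus TSA (4 and 3 factors). Small values changed sign there: Irf4 with TSA ran from −0.039 to 0.026, Ikzf1 from −0.040 to 0.031 with TSA, −0.019 to 0.069 with butyrate and −0.010 to 0.082 for butyrate minus TSA, and Id2 from −0.014 to 0.049 for butyrate minus TSA. Irf8 was called lower with TSA without untreated replicate 1 (−0.15, limma adjusted p = 0.0441). After each group's mean was taken off, same-numbered arrays correlated at r from −0.098 to 0.32 over 9 pairs. Differently numbered arrays then correlated at r from −0.33 to 0.16 over 18 pairs. With 3 arrays per group these values cannot decide whether equal numbers share a source. With the replicate block 5154 were higher and 4290 lower with TSA, 6676 and 5144 with butyrate, and no call of a factor changed.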
